A study of Mus musculus with 8 samples.

Results

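Heterotrimeric G protein subunits and the regulators of G protein signalling (RGS) were examined in hypothalamus RNA of high gainers and low gainers, mice that differed in weight gain while they ate the same diets. Members were all genes whose symbol marks a G alpha, G beta, G gamma or RGS gene, among array probes assigned to 1 gene, with Rgs9 and Gnas not counted here. This gave 45 genes, of 13840 genes named on the array: 12 G alpha, 5 G beta, 12 G gamma and 16 RGS genes. They were read by 51 probes. Gnb1l and Rgs9bp met the symbol rule, although Gnb1l is not a G beta subunit and Rgs9bp is an anchoring protein and not an RGS protein. The family genes Gna12, Gnai1, Gnat3, Gnb1, Rgs11, Rgs12, Rgs16, Rgs21, Rgs22 and Rgs7bp, known from the RefSeq table, were not analysed here.

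Both groups were male C57BL/6J mice, an inbred strain, so no allele or transgene separated them. All were fed a high-fat diet for 6 weeks, a low-fat diet for 2 weeks and the high-fat diet for 6 more weeks, and the labels give no age. In the study's experiment with this schedule, the low-fat diet was restricted below each mouse's earlier intake. Hypothalamus RNA of 20 high gainers formed one pool and that of 20 low gainers the other, and each pool was hybridised to 4 arrays with a single-colour chemiluminescent readout. The 4 arrays of a pool are technical replicates, so every test below compares 2 pools against the spread between arrays and holds no information on the spread between mice. In bulk tissue, fewer cells of a type and less RNA per cell cannot be told apart.

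A heterotrimeric G protein joins a receptor to its effectors. An activated receptor makes the alpha subunit exchange GDP for GTP, and alpha and the beta-gamma dimer then act on adenylyl cyclases, phospholipase C beta, potassium channels and other targets. RGS proteins speed the hydrolysis of GTP by the alpha subunit and so shorten the signal. In the hypothalamus, receptors for neuropeptides, monoamines and melanocortins that act on feeding and energy expenditure signal through these proteins.

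Low gainer array 2 was kept apart from the comparison. Deposited log2 intensities on this array correlated with those on the other 7 arrays at an r between 0.228 and 0.253. Each of these used the probes measured on both arrays. The other 7 correlated with each other at 0.943 to 0.987 (genes are not independent replicates). Those values were taken after quantile normalization, over the 11169 probes measured on all 7 arrays, so the 2 ranges differ in probes and scale. Low gainer array 3 had the fewest values, 13657 against up to 16873 on other arrays, and it stood apart for many members, as described below. Hypothalamic neuron genes were measured: 11 of the 18 listed markers had a value on all 7 arrays, and their summed intensity was 67.0 to 74.4 on high gainer and 66.8 to 77.2 on low gainer arrays. Of these 11, 9 had a log2 difference (high gainer minus low gainer) below 0 and 2 above, with a median of -0.23 and 0 called. Ghrh and Nkx2-1 had no value on any of the 7 arrays. Anterior pituitary hormone genes stood at a summed 8.30 to 10.4 on the high gainer arrays and 0.837 to 1.38 on the low gainer arrays, and the 3 of them that were tested (Gh, Cga and Prl) were called higher. Their part in the differences below was not tested.

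Of the 51 member probes, 25 (49.0%) had a value on all 7 arrays, 17 on some and 9 on none. The share on all 7 was 43.9% over all probes that name 1 gene. The G gamma class was the most completely measured, with 11 of 14 probes (78.6%). It was followed by G alpha with 6 of 14 (42.9%), G beta with 2 of 5 and RGS with 6 of 18 (33.3%). The 25 probes read 24 genes, since Gng2 had 2 of them. A further 14 genes had a value on some arrays only, and the 7 genes Gna14, Gnat2, Gnb3, Gngt1, Rgs1, Rgs13 and Rgs18 had none on the 7 arrays. An empty cell says that no value was given, not that the transcript was absent.

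**Figure D1:**
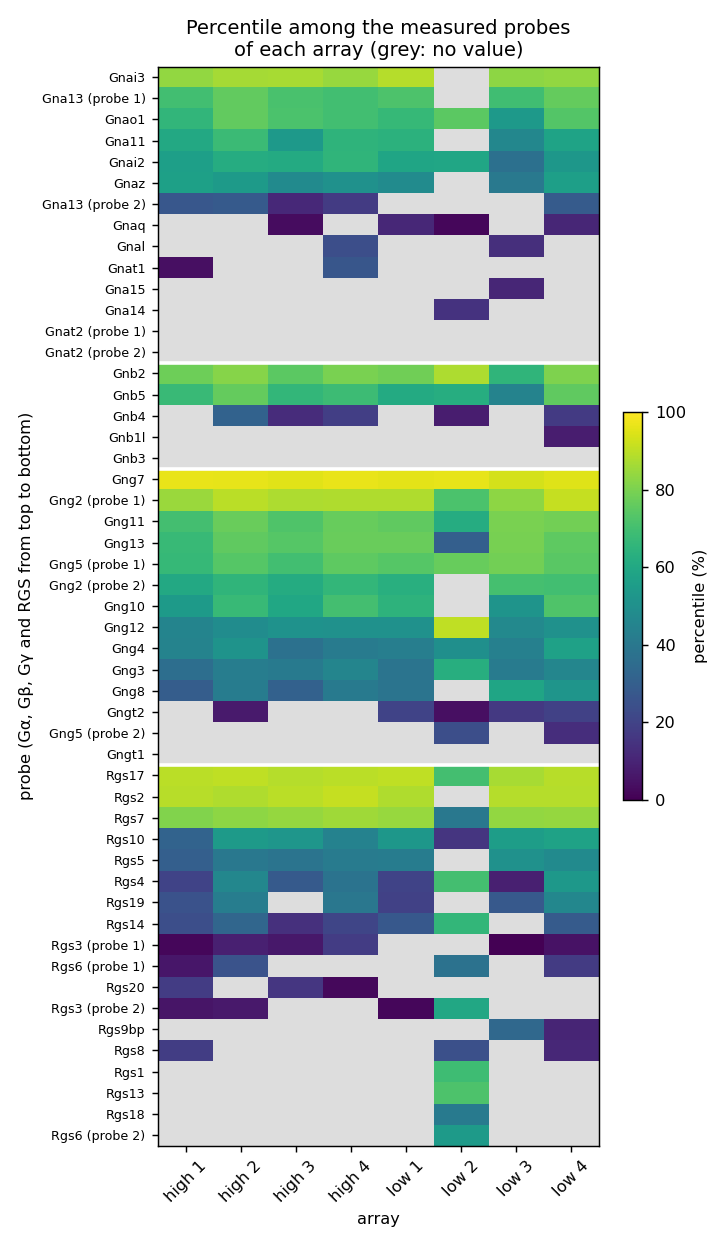
Percentile of each of the 51 member probes among all probes measured on an array, with one column per array and grey where a probe has no value; white lines part the G alpha, G beta, G gamma and RGS probes. Gng7 was at a percentile of 93.7 or more on every array, and on low gainer array 2 the order of probes differs from that in the other columns.

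A probe's brightness depends on its own sequence as well as on its transcript, so percentiles order probes and do not order transcript amounts. The brightest member was Gng7, a gamma subunit known from striatal neurons, with a median percentile of 96.1 over the 7 arrays. Next were Rgs17 at 89.7, an RGS protein that acts on Gi-family and Gz subunits, and Rgs2 at 89.0, which acts on Gq. Gng2 (brighter probe) at 87.9, Gnai3 at 84.7 and Rgs7 at 84.0 followed. The medians of Rgs17, Rgs2 and Gng2 lay closer to each other than each probe's own range over the 7 arrays, from 86.8 to 90.5 for Rgs17, from 88.1 to 91.2 for Rgs2 and from 83.0 to 91.1 for Gng2, so their order is not settled. Gng7 did not overlap any of them, at 93.7 to 96.7. The dimmest of the 24 genes was Rgs4, with a median of 28.3 and a range from 8.60 to 53.4, the widest of the members with values on all 7 arrays.

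**Figure D2:**
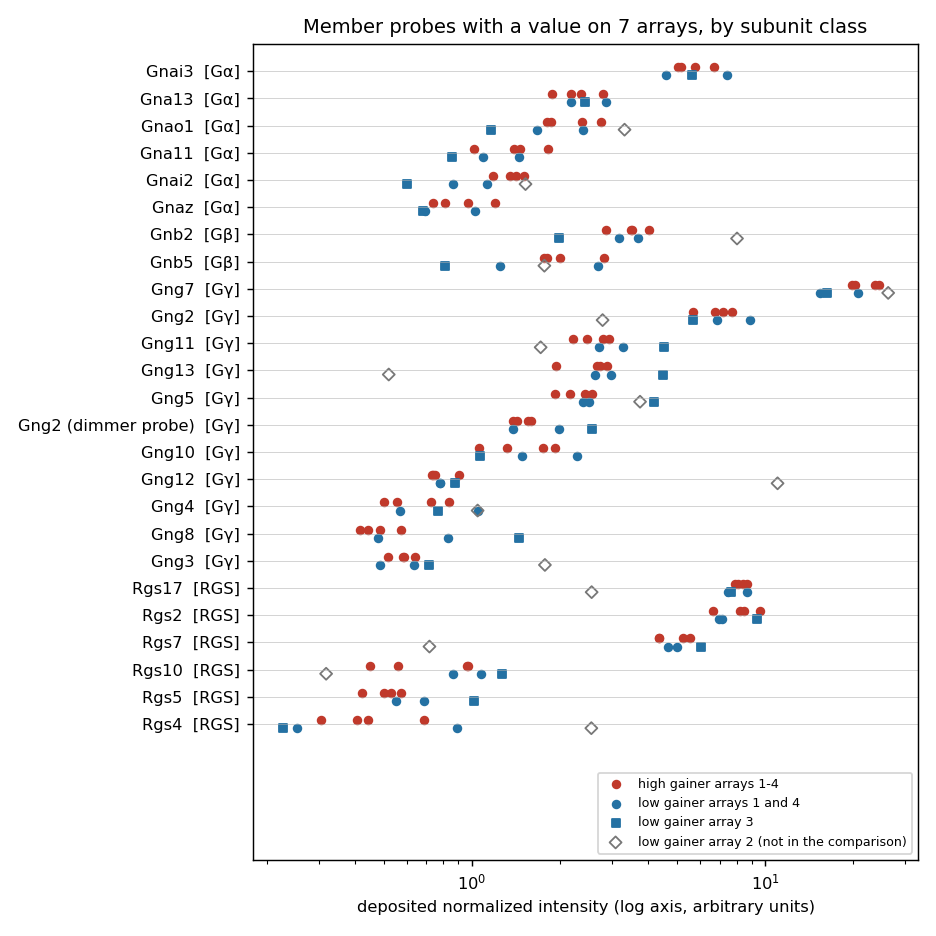
Deposited normalized intensity (log axis, arbitrary units) of the 25 member probes measured on all 7 arrays; red circles are the 4 high gainer arrays, blue circles low gainer arrays 1 and 4, blue squares low gainer array 3 and open diamonds low gainer array 2, which is not in the comparison. The red and blue points overlap for every probe but Gnai2. There the lowest high gainer array is at 1.18 and the highest of low gainer arrays 1, 3 and 4 at 1.12, while low gainer array 2 is at 1.52.

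No member was called different between the pools. With limma on all 11169 probes with a value on the 7 arrays, 0 of 24 member genes had an adjusted p under 0.05, where 0.0269% of all probes did. Without adjustment, 3 of 24 member genes had a limma p under 0.05 (Gnai2, Gng7 and Gng8), beside 6.48% of all probes. By the cutoffs of the study's methods, an unadjusted p under 0.01 with a 1.5-fold difference, 0 members were higher in high gainers and 0 lower, where 0.457% of all probes were higher and 0.573% lower. In 1 member gene, Gnai2, all high gainer arrays lay above all low gainer arrays, beside 2.07% of all probes. In 0 genes did they all lie below, beside 2.7% of all probes. Adjusted p-values of the members by limma ran from 0.750 to 0.990.

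The log2 difference, high gainer minus low gainer, was above 0 in 10 member genes and below 0 in 14, with a median of -0.07. The median over all probes was 0.00. The median absolute difference was 0.28 for the members and 0.17 for all probes. A p that misses the threshold does not show that levels were alike: the 95% interval lay within a 2-fold difference either way for 18 of the 24 genes, and for 88.1% of all probes. The other 6 member genes were Gnai2, Gnb5, Gng8, Rgs4, Rgs5 and Rgs10.

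**Figure D3:**
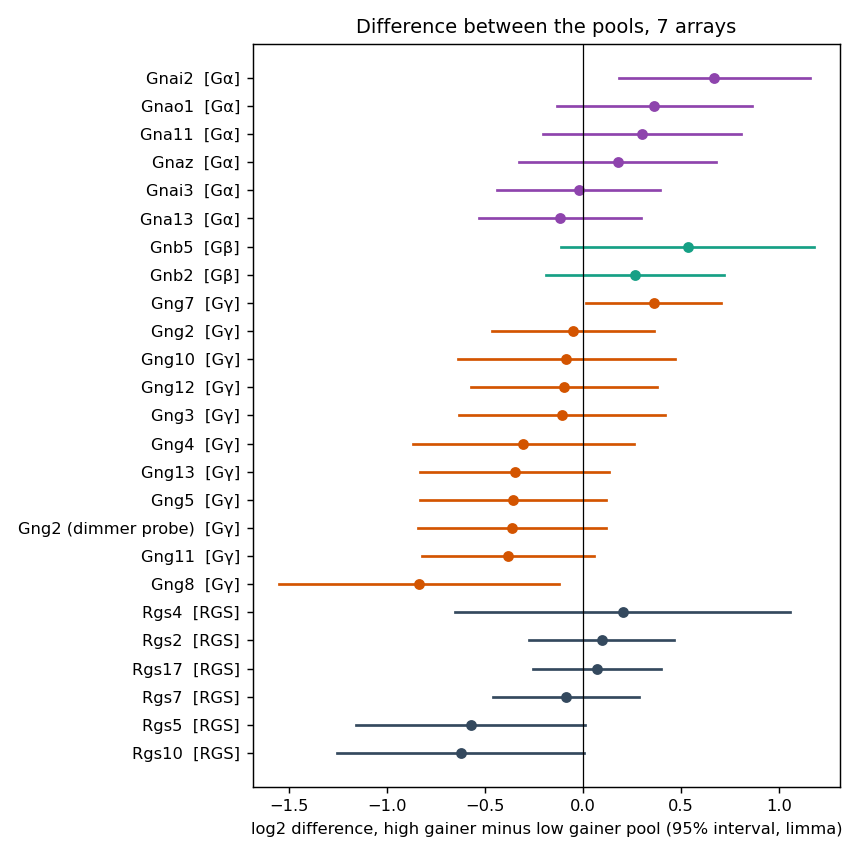
Log2 difference between the pools, high gainer minus low gainer, for the 25 member probes measured on all 7 arrays; points are limma estimates and bars their 95% intervals, coloured by class. The intervals of Gnai2, Gng7 and Gng8 leave out 0 before adjustment, and all of the adjusted p-values are 0.750 or more.

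Among the G alpha subunits, Gnai2 had the difference with the smallest p. It encodes a Gi subunit, which inhibits adenylyl cyclase. Its deposited intensity was 1.18, 1.35, 1.41 and 1.503 on high gainer arrays 1 to 4 and 1.12, 0.602 and 0.863 on low gainer arrays 1, 3 and 4. The means were 1.36 ± 0.138 (SD, n = 4) and 0.862 ± 0.260 (SD, n = 3). These arrays did not overlap between the groups, with low gainer array 1 just under high gainer array 1. Low gainer array 2, kept apart, was at 1.52, above all high gainer arrays. The log2 difference was 0.67, with a 95% interval from 0.18 to 1.15 and an adjusted p of 0.750 by limma. Leaving out low gainer array 3, the lowest of the 7, gave 0.50.

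Gnai3, the other Gi subunit measured, was at 5.17, 5.76, 6.67 and 5.06 on high gainer arrays and at 7.44, 5.64 and 4.59 on low gainer arrays. Here the low gainer arrays enclosed the high gainer ones, and the log2 difference was -0.02 (95% interval from -0.44 to 0.39). Gnao1, which encodes the Go subunit abundant in neurons, was at 1.81, 2.76, 2.38 and 1.86 against 1.66, 1.16 and 2.40. The groups overlapped through low gainer array 4, and the log2 difference was 0.36 (from -0.14 to 0.86). It was 0.15 without low gainer array 3 and 0.58 without low gainer array 4.

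Gna11, a Gq-family subunit that activates phospholipase C beta, was at 1.39, 1.81, 1.02 and 1.46 against 1.45, 0.854 and 1.10, a log2 difference of 0.30 (from -0.21 to 0.81). Gna13, which acts on small GTPases through guanine nucleotide exchange factors, was at 2.17, 2.80, 2.36 and 1.88 against 2.18, 2.44 and 2.87, with a log2 difference of -0.12 (from -0.53 to 0.29). Gnaz, a Gi-family subunit insensitive to pertussis toxin, had a log2 difference of 0.17 (from -0.33 to 0.68). Its intensity was 0.736 to 1.19 on high gainer and 0.682 to 1.02 on low gainer arrays. In all 3 genes the groups overlapped. Single arrays moved these differences: with each array left out, they ran from 0.18 (without low gainer array 3) to 0.49 (without low gainer array 1) for Gna11. The ends were -0.21 (without high gainer array 2) and -0.03 (without high gainer array 4) for Gna13, and 0.04 (without high gainer array 1) and 0.30 (without low gainer array 4) for Gnaz.

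The other G alpha genes gave few values. Gnaq, the Gq subunit that couples many neuropeptide receptors to phospholipase C, had values of 0.140 on high gainer array 3, 0.185 on low gainer array 1 and 0.148 on low gainer array 4. Gnal, the olfactory and striatal stimulatory subunit, was at 0.252 on high gainer array 4 and at 0.273 on low gainer array 3. Gnat1, the transducin of rod photoreceptors, was at 0.148 and 0.280 on high gainer arrays 1 and 4, and Gna15 at 0.247 on low gainer array 3.

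Both G beta genes measured on all 7 arrays were above 0. Gnb2, one of the common beta subunits, was at 3.52, 4.03, 2.86 and 3.48 on high gainer arrays, against 3.18, 1.98 and 3.70 on low gainer arrays. Array 3 was the lowest in the low gainers while the other low gainer arrays lay among the high gainer ones. The log2 difference was 0.26 (95% interval from -0.19 to 0.72). It was 0.03 without low gainer array 3 and 0.43 without low gainer array 4. Gnb5, a beta subunit that binds RGS proteins of the R7 family in place of a gamma subunit, was at 1.99, 2.82, 1.80 and 1.77 against 1.25, 0.807 and 2.69. Low gainer array 4 lay near the top of the high gainer range and arrays 1 and 3 under all of it. Its log2 difference was 0.53 (from -0.11 to 1.17), with an adjusted p of 0.793 by limma. It was 0.19 without low gainer array 3 and 0.96 without array 4. Gnb4 had values of 0.388, 0.241 and 0.210 on high gainer arrays 2, 3 and 4 and of 0.196 on low gainer array 4, and Gnb1l had 1 value, 0.130 on low gainer array 4.

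Among the G gamma subunits, which anchor the beta-gamma dimer to the membrane, 9 of 10 genes had a difference below 0 and Gng7 was the exception. Gng7 was at 24.5, 20.2, 19.8 and 23.7 on high gainer arrays and at 20.8, 16.3 and 15.4 on low gainer arrays. The means were 22.05 ± 2.40 (SD, n = 4) and 17.5 ± 2.90 (SD, n = 3). Low gainer array 1 lay within the high gainer range and the other 2 low gainer arrays lay under it. The log2 difference was 0.36, with a 95% interval from 0.01 to 0.70 and an adjusted p of 0.756 by limma, and it was above 0 without any of the 7 arrays in turn, from 0.29 to 0.48.

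The striatum, where Gng7 is known from neurons, is a forebrain region near the hypothalamus. Of 9 striatal marker symbols listed, with Drd1 also under its older symbol, 5 had a value on all 7 arrays. Of these, 4 were above 0 and 1 below, with 0 called. Their summed intensity ran from 20.7 to 26.6 on high gainer and from 18.5 to 24.7 on low gainer arrays. Pde10a, a phosphodiesterase of striatal neurons, was at 2.52, 2.19, 2.33 and 1.67 against 1.94, 0.602 and 0.922 on low gainer arrays 1, 3 and 4. On the same low gainer arrays Drd2 was at 1.23, 0.788 and 1.17, also highest on array 1. Tac1 at 4.46, 5.74 and 6.78, Ppp1r1b at 9.05, 12.1 and 13.7 and Drd1 at 1.86, 1.54 and 2.16 were highest on array 4. The part of striatal tissue in the difference of Gng7 was not tested.

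Among the members measured on all 7 arrays, Gng8 had the largest difference in size. Its intensity was 0.414, 0.573, 0.442 and 0.484 on high gainer arrays, against 0.479, 1.45 and 0.831 on low gainer arrays. Low gainer array 1 lay among the high gainer arrays, and array 3 was the highest. Gng8 thus had a log2 difference of -0.84 (95% interval from -1.55 to -0.12), with an adjusted p of 0.752 by limma. It was -0.39 without low gainer array 3 and -1.24 without low gainer array 1.

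Gng11, a farnesylated gamma subunit expressed in endothelial cells, was at 2.21, 2.93, 2.46 and 2.81 against 2.70, 4.50 and 3.29, a log2 difference of -0.38 (from -0.82 to 0.05). Gng5 (brighter probe) was at 1.92, 2.43, 2.16 and 2.56 against 2.39, 4.16 and 2.52, with a log2 difference of -0.36 (from -0.83 to 0.12). Gng13, a gamma subunit known from taste cells and retinal bipolar cells, was at 1.94, 2.74, 2.67 and 2.90 against 2.98, 4.48 and 2.63, with a log2 difference of -0.35 (from -0.83 to 0.13). In all 3 genes, low gainer array 3 was the highest of the 7 and the other low gainer arrays lay in or near the high gainer range. Without that array the log2 differences were -0.18 for Gng11, -0.09 for Gng5 and -0.11 for Gng13, and without low gainer array 4 that of Gng13 was -0.54.

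The other gamma subunits differed less. Gng4 was at 0.726, 0.838, 0.555 and 0.502 on high gainer and at 0.568, 0.765 and 1.05 on low gainer arrays, and its log2 difference was -0.31 (from -0.87 to 0.26). It was -0.54 without low gainer array 1 and -0.14 without low gainer array 4. Gng3, a subunit of neurons, had a log2 difference of -0.11 (from -0.63 to 0.42), Gng12 of -0.10 (from -0.57 to 0.38) and Gng10 of -0.09 (from -0.64 to 0.47). The intensity of Gng12 was 0.729 to 0.906 over the 7 arrays. Of the retinal transducin gammas, Gngt1 had no value, and Gngt2 was at 0.154 on high gainer array 2 and at 0.253, 0.306 and 0.213 on low gainer arrays 1, 3 and 4.

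Gng2, a gamma subunit widely expressed in the brain, was the 1 member read by 2 probes on all 7 arrays. The study listed this gene among those with altered expression on its hypothalamus arrays, lower in high gainers, using every array of each pool. It also reported that quantitative RT-PCR of individual mice did not bear out any of the differences so listed. Its quantitative RT-PCR of the pools gave an estimate on the other side, higher in high gainers. The values below leave out low gainer array 2, so they do not repeat the study's array comparison. With all 8 arrays, the brighter probe had a log2 difference of 0.15, above 0, with an adjusted p of 0.809 by limma. The dimmer probe had no value on low gainer array 2 and was not fitted there. The brighter probe was at 5.66, 7.68, 7.17 and 6.76 on high gainer arrays, against 6.83, 5.69 and 8.87 on low gainer arrays, a log2 difference of -0.05 (95% interval from -0.46 to 0.36). The dimmer probe was at 1.38, 1.59, 1.42 and 1.55 against 1.38, 2.57 and 1.98, a log2 difference of -0.36 (from -0.84 to 0.12). The latter was -0.12 without low gainer array 3 and -0.59 without low gainer array 1. Groups overlapped in both probes. The adjusted p by limma was 0.978 for the brighter and 0.811 for the dimmer probe.

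The probes of Gng2 parted on 1 array. The log2 ratio of the brighter to the dimmer probe was 2.04, 2.38, 2.30 and 2.09 on high gainer arrays 1 to 4, and 2.30 and 2.29 on low gainer arrays 1 and 4, but 1.07 on low gainer array 3. On that array, after quantile normalization, the brighter probe was at its lowest and the dimmer probe at its highest. On the deposited intensities the brighter probe was at 5.69 there, just above 5.66 on high gainer array 1. The mean ratio was 2.20 ± 0.162 (SD, n = 4) in high gainers and 1.89 ± 0.708 (SD, n = 3) in low gainers. The difference of 0.31 had a two-sided p of 0.629 by an exact permutation test, in a design that cannot go below 0.0571.

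**Figure D4:**
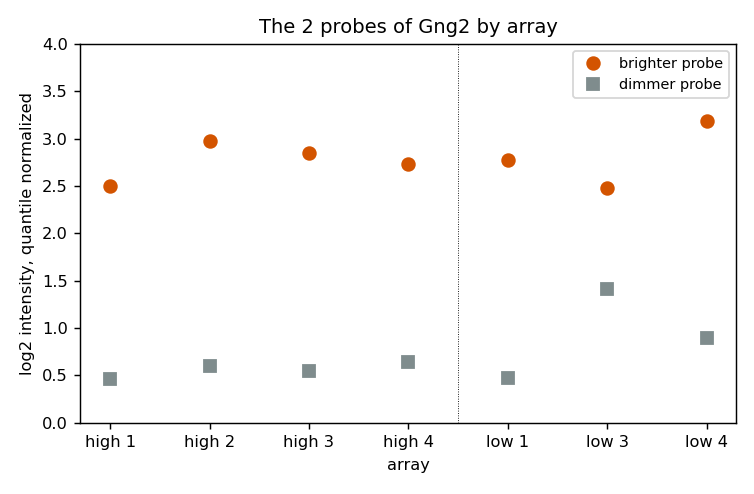
Log2 intensity after quantile normalization of the 2 probes of Gng2 on each of the 7 arrays; circles are the brighter and squares the dimmer probe, and the dotted line parts the pools. The distance between the probes is 2.04 to 2.38 on the log2 scale on 6 arrays and 1.07 on low gainer array 3.

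Other genes with more than 1 probe gave less to compare. The second probe of Gna13 had values of 0.385, 0.343, 0.229 and 0.199 on the high gainer arrays and 0.307 on low gainer array 4. The second probe of Gng5 had a value of 0.166 on low gainer array 4 only, among the 7 arrays. One probe of Rgs3 was at 0.165, 0.151 and 0.104 on high gainer arrays 1 and 2 and low gainer array 1. The other was at 0.120, 0.168, 0.179 and 0.203 on the high gainer arrays and at 0.0806 and 0.109 on low gainer arrays 3 and 4. One probe of Rgs6 was at 0.169 and 0.313 on high gainer arrays 1 and 2 and at 0.198 on low gainer array 4, and the other had no value on the 7 arrays. Neither probe of Gnat2, the cone transducin, had a value on any array.

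Among the RGS genes, the bright probes differed little between the pools. Rgs17 was at 8.70, 8.43, 7.88 and 8.08 on high gainer arrays and at 8.70, 7.63 and 7.49 on low gainer arrays, a log2 difference of 0.07 (95% interval from -0.25 to 0.40). Rgs2 was at 8.19, 6.62, 8.49 and 9.58 against 6.97, 9.35 and 7.12, with a log2 difference of 0.09 (from -0.27 to 0.46). Rgs7, a regulator of the R7 family that pairs with Gnb5, was at 4.33, 4.35, 5.25 and 5.54 against 5.01, 6.04 and 4.66, with a log2 difference of -0.09 (from -0.46 to 0.28). The groups overlapped in each. The intervals bound a difference of these 3 genes to less than 1.5-fold either way.

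Rgs10 and Rgs5 had differences below 0 whose intervals ended near 0. Rgs10, a small RGS protein of microglia and neurons, was at 0.449, 0.965, 0.972 and 0.561 on high gainer arrays and at 0.862, 1.27 and 1.08 on low gainer arrays. High gainer arrays 1 and 4 were low, and arrays 2 and 3 lay within the low gainer range. Its log2 difference was -0.62 (from -1.25 to 0.00), with an adjusted p of 0.756 by limma, and -0.41 without high gainer array 1. Of 10 microglial markers listed, 5 had a value on all 7 arrays, with 4 above 0, 1 below and 0 called, and their sum ran from 21.9 to 29.5 on high gainer and from 23.2 to 25.6 on low gainer arrays. The part of microglia in the difference of Rgs10 was not tested.

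Rgs5, a marker of pericytes, was at 0.422, 0.531, 0.575 and 0.502 against 0.552, 1.01 and 0.684. Low gainer array 1 lay within the high gainer range, and array 3 was the highest. Its log2 difference was -0.57 (from -1.16 to 0.01), with an adjusted p of 0.756 by limma, and -0.28 without low gainer array 3. Of 11 endothelial and pericyte markers listed, 5 had a value on all 7 arrays, with 3 above 0, 2 below and 0 called. Their sum was 9.65 to 12.4 on high gainer and 9.87 to 13.2 on low gainer arrays, and Abcc9 had no value.

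Rgs4, a regulator of Gi and Gq signalling in neurons, had the widest interval of the members measured on all 7 arrays. It was at 0.305, 0.687, 0.405 and 0.441 on high gainer arrays and at 0.253, 0.227 and 0.886 on low gainer arrays, so that the low gainer arrays held both the lowest values and the highest. The log2 difference was 0.20 (from -0.65 to 1.06). It was -0.07 without low gainer array 1, -0.10 without array 3 and 0.77 without array 4.

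A further 3 RGS genes could be fitted with missing values left out, on probes with a value on at least 2 arrays per group. Rgs3 had a log2 difference of 0.86 (95% interval from -0.12 to 1.84), with an adjusted p of 0.925 by limma, from all 4 high gainer and 2 low gainer arrays. Its probe was near the floor of the arrays, at a median percentile of 5.64 (from 0.0659 to 17.7) where it had a value. Rgs19 was at 0.362, 0.585 and 0.464 on high gainer arrays 1, 2 and 4 and at 0.247, 0.442 and 0.637 on low gainer arrays 1, 3 and 4, a log2 difference of 0.13 (from -0.68 to 0.94). Rgs14 was at 0.348, 0.408, 0.250 and 0.227 against 0.322 and 0.309 on low gainer arrays 1 and 4, a log2 difference of -0.24 (from -0.99 to 0.51). Rgs20 was at 0.278, 0.266 and 0.0955 on high gainer arrays 1, 3 and 4 only. Rgs8 was at 0.282 on high gainer array 1 and at 0.151 on low gainer array 4, and Rgs9bp at 0.543 and 0.146 on low gainer arrays 3 and 4.

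The class medians lay on both sides of 0. The median log2 difference was 0.24 for G alpha, with 4 of 6 genes above 0, and 0.40 for G beta, with 2 of 2. It was -0.21 for G gamma, with 1 of 10 above 0, and -0.01 for RGS, with 3 of 6. Over all probes the median was 0.00 and 49.6% were above 0. The counts of genes above 0 in each class were the same with median centring, cyclic loess and the deposited values. Among the brightest 50% of probes, the median was -0.02 for G alpha (1 of 3 genes above 0) and 0.34 for G beta (2 of 2). There it was -0.35 for G gamma (1 of 5) and 0.07 for RGS (2 of 3). With all 8 arrays, it was 0.12 for G alpha (1 of 2) and 0.05 for G beta (1 of 2). For G gamma it was then -0.46 (3 of 8) and for RGS 0.00 (2 of 4). Without low gainer array 3, the median was 0.15 for G alpha, 0.11 for G beta and -0.14 for G gamma, with 3 of 10 gamma genes above 0 (Gng3, Gng7 and Gng12). Without low gainer array 4, it was 0.27 for G alpha, 0.69 for G beta and -0.16 for G gamma, with 3 of 10 gamma genes above 0 (Gng2, Gng7 and Gng10). The G gamma median was -0.34 without low gainer array 1, with 1 of 10 above 0, and -0.14 without high gainer array 1, with 3 of 10.

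Low gainer array 3 lay on opposite sides of 0 in different classes. Each gene's log2 level was centred on its 7-array mean, and the median over a class on that array was -0.29 for G alpha, -0.80 for G beta, 0.37 for G gamma and 0.22 for RGS. Low gainer arrays 1 and 4, hybridised with RNA of the same pool, were at -0.04 and -0.08 for G alpha, -0.24 and 0.36 for G beta, -0.04 and 0.09 for G gamma, and -0.05 and 0.02 for RGS. High gainer array 1 was lowest for G gamma at -0.34 and for RGS at -0.31.

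**Figure D5:**
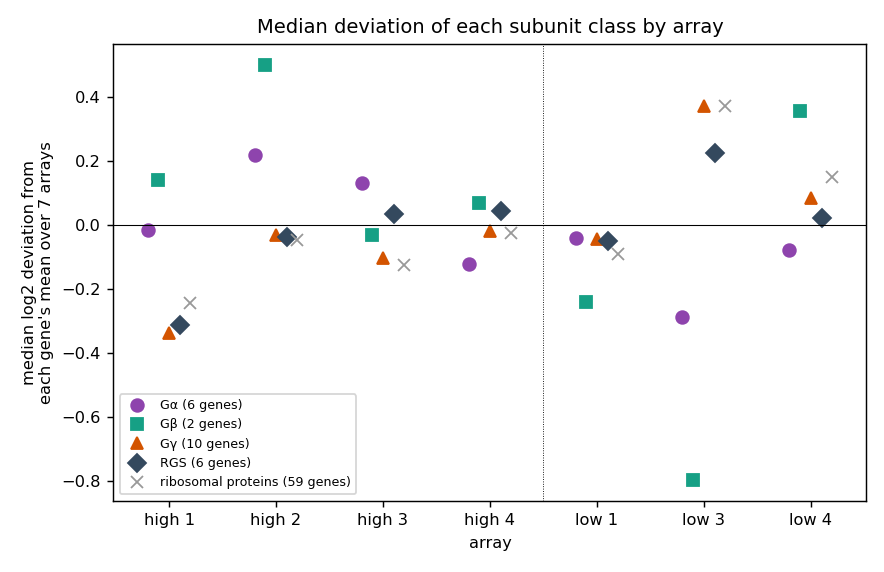
Median log2 deviation of each subunit class by array, with every gene centred on its 7-array mean, with the cytosolic ribosomal protein genes for comparison; the dotted line parts the high gainer from the low gainer arrays. On low gainer array 3 the gamma and ribosomal genes are at 0.37 and the beta genes at -0.80, while arrays 1 and 4 of the same pool lie nearer to 0 for G alpha, G gamma and RGS.

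On the deposited intensities, low gainer array 3 was the highest or lowest of the 7 arrays for 15 of the 24 member genes, beside 41.2% of all probes. After quantile normalization it was at an end for 18 of 24, beside 41.3%, since the order of the arrays changed in Gng2, Gng7, Gng12, Rgs17 and Gnaz. It was highest on both scales for 8 genes, the gamma genes Gng3, Gng5, Gng8, Gng11 and Gng13 with Rgs5, Rgs7 and Rgs10. It was lowest on both scales for Gna11, Gnai2, Gnao1, Gnb2, Gnb5 and Rgs4. On the deposited intensities, low gainer array 4 was at an end for 8 of 24 genes, beside 49.2% of all probes, and high gainer array 3 for 1 of 24, beside 20.5%. High gainer array 1 was at an end for 12, beside 28.1%, and 7 of the 10 genes it had lowest were gamma genes (Gng2, Gng5, Gng8, Gng10, Gng11, Gng12 and Gng13).

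Other gene groups moved with the same arrays. The 59 cytosolic ribosomal protein genes had a median deviation of 0.37 on low gainer array 3 and -0.24 on high gainer array 1, as the gamma genes had 0.37 and -0.34. Oligodendrocyte markers, 5 of 9 measured, had a median deviation of -0.92 on low gainer array 3. Their summed intensity was 12.4 there and 41.1 and 41.4 on low gainer arrays 1 and 4. On the high gainer arrays it was 47.2 to 75.2, above each of these. All 5 had a log2 difference above 0, with a median of 0.52 and 0 called. Of 7 cortex and hippocampus markers listed, 3 had a value on all 7 arrays, with 1 above 0, 2 below and 0 called. Their sum was 23.6 to 24.9 on high gainer and 25.8 to 36.8 on low gainer arrays. The part of any of these in the members' differences was not tested.

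Genes that act beside the members in the same pathway were taken as 8 lists of 67 gene symbols. A few genes stand in them under both an older and a current symbol. Of these, 48 had a probe and 25 had a value on all 7 arrays, with 17 above 0, 8 below 0, 0 called and a median log2 difference of 0.05. At an unadjusted limma p under 0.05 there was 1 gene of the 25, beside 6.48% of all probes, namely Kalrn, a guanine nucleotide exchange factor of neurons. It was at 5.26, 4.53, 5.89 and 5.51 on high gainer arrays and at 4.81, 3.62 and 2.45 on low gainer arrays, so that low gainer array 1 lay within the high gainer range. Its log2 difference was 0.63 (95% interval from 0.16 to 1.11), with an adjusted p of 0.750 by limma.

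Adenylyl cyclases, which make cyclic AMP under the control of alpha and beta-gamma subunits, had 4 genes measured, 2 above and 2 below 0. The smallest p was that of Adcy8, at a log2 difference of -0.20, followed by Adcy2 at 0.14 and Adcy6 at 0.07. The 4 measured subunits of protein kinase A, the kinase that cyclic AMP activates, were at -0.23 for Prkar2a, 0.13 for Prkar1b, 0.13 for Prkar2b and 0.03 for Prkar1a. Phospholipase C beta, the effector of Gq, gave 0.40 for Plcb1 and 0.17 for Plcb4. The 2 measured potassium channel subunits opened by beta-gamma were at 0.33 (Kcnj9) and 0.05 (Kcnj3).

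Of receptor kinases and arrestins, which end receptor signalling, Grk5 alone was measured on all 7 arrays, at -0.42. Among regulators of alpha subunits, Gpsm1, which holds Gi subunits in the GDP form, was at 0.31, and Ric8b, a chaperone of stimulatory alpha subunits, at -0.22, with Gprin1 at 0.04. Pdcl, needed to assemble the beta-gamma dimer, was at 0.28, and the chaperonin subunits Cct5 and Tcp1 at 0.05 and 0.04. Of the exchange factors and kinases downstream of alpha subunits, Arhgef12 was at 0.51 and Prkd1 at -0.17 beside Kalrn. None of these had an adjusted p under 0.750 by limma.

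On low gainer array 2, 29 of the 51 member probes had a value, and 16 had one on all 8 arrays. For these 16, the percentile differed from the median of the other 7 arrays by 15.4 points as a median, with changes from -45.3 to 41.7 points. The full range over the other 7 arrays, a different measure, had a median of 12.5 points over the 25 member probes tested. Gng12 was at 11.0 on this array, against 0.729 to 0.906 on the other 7. Rgs4 was at 2.56, Gnb2 at 8.02 and Gng3 at 1.77, each above all of the other arrays. Rgs7 was at 0.717 (4.33 to 6.04 on the others), Gng13 at 0.521 (1.94 to 4.48), Rgs17 at 2.56 (7.49 to 8.70) and Gng2, by its brighter probe, at 2.79 (5.66 to 8.87). Gng7 at 26.3 and Gnai2 at 1.52 lay just above the high gainer range. Values of 9 probes measured on all other arrays were missing, namely those of Gna11, Gna13, Gnai3, Gnaz, Gng8, Gng10, Rgs2, Rgs5 and the dimmer probe of Gng2.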

How the data were processed

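Digoxigenin-labelled cRNA of each pool was hybridised to an Applied Biosystems mouse genome survey array and read by chemiluminescence. The deposited values are intensities on a linear scale, normalized across arrays by a quantile method by the authors, per the study's methods. Which step left cells empty is not stated, and no background signal per array was used. The deposited arrays did not share 1 distribution, so log2 intensities were quantile normalized again over the 11169 probes measured on all 7 arrays, without a pseudocount or a filter on brightness. A genome build for the array is not given in the sources used here.

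Of 33012 probes, the platform annotation gave 1 gene for 14411 and several genes for 247, and the other 18354 are unnamed here. All 51 member probes matched a gene of RefSeq (GRCm38.p6), and no symbol changed. A gene was taken by its brightest probe. Groups came from the sample labels.

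The pools were compared with limma 3.58.1 in R 4.3.3 (lmFit, eBayes with a trend), with Benjamini-Hochberg adjustment over all probes at 0.05. The procedure was tested on simulated arrays with independent noise for each probe. These held no shift of a whole array and no spread between mice. The number of arrays limits the precision. Alternatives were median centring, cyclic loess, the deposited values, the brightest 50% of probes, a pseudocount at the 10th percentile, all 8 arrays, missing values left out, all probes of a gene, the replicate number as a block, the methods' t-test and each array left out. The medians by class without low gainer array 3 and the deviations and extremes by array were added after the data were seen. Described genes were up to 6 brightest per class, those with several probes, up to 6 per direction by smallest p, Gng2, and up to 3 per pathway list by smallest p. Other members are given by range or by the arrays that measured them. Members, lists and rules were chosen with earlier results of these data known.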

Additional observations from a re-analysis of the deposited data

Results flagged for a closer look

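In groups of 4 arrays, 45 were examined for a single array far from the other 3, and 4 were found, where chance gives about 1 in 20. Low gainer array 2 was the far array in 3 of them: Rgs7 at an intensity of 0.717, Gng12 at 11.0 and Rgs17 at 2.56. The other was Gng12 on high gainer array 3, at 0.906, with 0.729 to 0.746 on the other high gainer arrays.

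On low gainer array 2, outside the comparison of the pools, 5 member probes had a value that none of the other 7 arrays had. These were Rgs13 at 2.84, Rgs1 at 2.40, Rgs6 by its second probe at 1.26, Rgs18 at 0.754 and Gna14 at 0.312. Intensities on this array correlated with those on the other 7 arrays at an r of 0.228 to 0.253 only. The share of all probes with a value on this array alone is not given here. The cause of these values was not tested.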

How the results depend on the processing

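No member was called at an adjusted p of 0.05 under any of the 17 alternatives, each array left out included, and the lowest adjusted p by limma was 0.0555, for Gng8 without low gainer array 1. The count by p and fold of the methods was 1 with median centring (Gnai2) and 0 to 2 when each array was left out, with 2 without low gainer array 1 and 1 without low gainer array 4. The count of genes whose groups do not overlap was 0 among the brightest 50% of probes and 0 with all 8 arrays. It was 1 to 9 when each array was left out, with 9 without low gainer array 1 and 5 without low gainer array 4. It was 3 without high gainer array 3 and 2 without high gainer array 4, and fewer arrays overlap less by construction. Shares over all probes are not given for these alternatives, so neither count can be read as a result about the members. The median log2 difference of the members was -0.079 to 0.029 when each array was left out, the latter without high gainer array 1. With all 8 arrays, the direction reversed for Gnao1 (-0.022), Gnb2 (-0.17), Gng2 (0.15), Gng13 (0.12), Rgs4 (-0.64) and Rgs7 (0.46), and the cause was not tested. Leaving out each array reversed 12 values of 7 genes, with ranges of -0.19 to 0.16 for Gnai3, -0.21 to 0.14 for Gng2, -0.28 to 0.15 for Gng10, -0.18 to 0.022 for Gng12, -0.28 to 0.072 for Gng3, -0.10 to 0.77 for Rgs4 and -0.17 to 0.016 for Rgs7. The other 362 of 380 values of single probes kept their direction. Not all of these are separate checks. The methods' t-test has the log2 differences of the main fit by construction. The fit with a block has those of the fit without high gainer array 2. Arrays of the same number did not deviate together (correlations of -0.27, 0.07 and 0.01). With the replicate number as a block, 0 members were called and the median log2 difference was -0.05.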
